A study of Mus musculus with 4 samples.

Results

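The genes described here are 10 genes of the retinal pigment epithelium and of melanin synthesis: Tyr, Tyrp1, Dct, Pmel, Mlana, Mitf, Rpe65, Rlbp1, Ttr and Best1. They were chosen by symbol, and 9 of the 10 were read and tested, among 18471 genes read and 17300 tested. The expression of Rpe65 was not analysed here. RNA was sequenced from retinas of single genotyped mouse embryos at embryonic day 19, with 2 libraries labelled wild-type and 2 labelled Foxn3KO. The Foxn3KO embryos, genotype Foxn3-/-, carry the allele of the line C57BL/6NJ-Foxn3em1(IMPC)Bay/Mmnc and lack exon 3 of Foxn3, a forkhead transcription factor gene. The labels name no treatment and no strain for the wild-type embryos apart from that line. The series asks how Foxn3 takes part in a network that regulates primary cilia. Pigmented tissue lies against the neural retina, so each gene is given library by library.

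The retinal pigment epithelium is a single sheet of pigmented cells behind the photoreceptors, and it forms from the outer layer of the optic cup. Its pigment, melanin, is made in melanosomes, organelles in which the enzymes encoded by Tyr, Tyrp1 and Dct act on tyrosine and its products along fibrils built from the Pmel protein. Mitf encodes the transcription factor that switches these genes on, both here and in melanocytes. The same epithelium regenerates retinal for the photoreceptors, through Rpe65 and Rlbp1 among others, and it moves ions and secretes carrier proteins.

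Windows from 250 bases before to 50 bases after the transcription start were taken from RefSeq (GRCm38.p6) and matched by symbol for 7 of the 10 genes. Ttr was left out of this search, and no window was found for Pmel or Mlana. Mitf has several starts, so there were 9 windows. Those of the 3 enzyme genes are shown because each holds the M-box core TCATGTG, the sequence that Mitf is known to bind in pigment genes. They are Tyr (chr7:87493463-87493762, minus strand), Tyrp1 (chr4:80833963-80834262, plus strand) and Dct (chr14:118052197-118052496, minus strand). Capitals mark the core on either strand.
Tyr: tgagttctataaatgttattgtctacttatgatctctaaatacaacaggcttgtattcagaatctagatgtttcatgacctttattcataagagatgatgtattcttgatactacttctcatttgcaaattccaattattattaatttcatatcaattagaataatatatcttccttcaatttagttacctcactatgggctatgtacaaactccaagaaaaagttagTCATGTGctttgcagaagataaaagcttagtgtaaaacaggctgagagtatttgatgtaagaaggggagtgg
Tyrp1: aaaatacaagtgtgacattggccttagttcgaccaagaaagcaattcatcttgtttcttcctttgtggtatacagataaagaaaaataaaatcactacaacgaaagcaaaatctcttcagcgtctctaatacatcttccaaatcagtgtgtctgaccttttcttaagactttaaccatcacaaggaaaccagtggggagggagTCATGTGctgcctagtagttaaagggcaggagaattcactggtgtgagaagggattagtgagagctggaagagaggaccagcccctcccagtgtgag
Dct: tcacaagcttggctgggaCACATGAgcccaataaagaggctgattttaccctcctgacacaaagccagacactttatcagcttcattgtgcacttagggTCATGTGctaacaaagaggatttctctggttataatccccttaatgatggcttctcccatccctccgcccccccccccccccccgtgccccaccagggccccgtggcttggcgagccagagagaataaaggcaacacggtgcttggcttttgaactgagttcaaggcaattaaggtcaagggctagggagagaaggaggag
The core began 22 bases before the start in Tyr, 47 in Tyrp1 and 151 in Dct, and Dct had a copy on the other strand 232 bases before its start. Around the forward copies the 3 windows shared the run GTCATGTGCT. Over 32851 RefSeq windows of this length, 3.77% held TCATGTG on either strand. The shorter E-box CATGTG, which lies within TCATGTG, was in 14.2% of all windows and also in those of Rlbp1 and Rpe65. The Mitf and Best1 windows held neither sequence. The palindromic E-box CACGTG was in none of the 9 windows, against 7.15% of all windows. These are matches of letters and not measured binding.

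Total counts ranged from 22543531 to 29360129 per library, and 3 counts equalled 0.103 to 0.134 CPM (read counts scaled to a common library size with TMM factors). Foxn3 itself had 97.6 and 99.8 CPM in the libraries labelled wild-type and 144 CPM in each library labelled Foxn3KO, so gene counts do not show the deletion and every direction below rests on the labels. The 14 neural retina markers summed to 3290 to 3479 CPM in all libraries. Wild-type replicate 1 stood apart by sex: it had 83073 counts of Xist and 0 of Ddx3y, against 9 to 19 and 1780 to 2317 in the other 3. It also held the fewest lens transcripts, as the summed lens markers gave 5.85 CPM there, 77.0 CPM in wild-type replicate 2, and 299.7 and 300.5 CPM in the libraries labelled Foxn3KO. Counts and the values that change are therefore also given without each wild-type library, and in those fits the lone wild-type library is assumed to vary like the Foxn3KO pair. Sex pattern and lens content differ with the libraries compared here, and their part in the results was not tested.

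Of the 9 genes tested, 4 were lower in the libraries labelled Foxn3KO and none was higher: the melanosome fibril gene Pmel, the tyrosinase gene Tyr, the thyroid hormone and retinol carrier gene Ttr, and the retinal-binding protein gene Rlbp1. Their falls were between 1.24-fold and 1.82-fold. Across all tested genes 21.9% passed the threshold, an adjusted p under 0.05 in the quasi-likelihood test of edgeR, with 9.66% lower and 12.3% higher. The median log2 fold change of the 9 genes was -0.36, against -0.005 for all tested genes. Wild-type replicate 2 had the highest level of 7 of the 9 genes, and the count of genes that passed depended on it: 2 passed without it, Pmel and Rlbp1, and 6 passed without wild-type replicate 1, when Tyrp1 and Dct joined the 4. The shares of all tested genes called lower in those fits were 13.1% and 10.9%. In bulk tissue, fewer pigmented cells and less RNA per cell cannot be told apart.

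**Figure D1:**
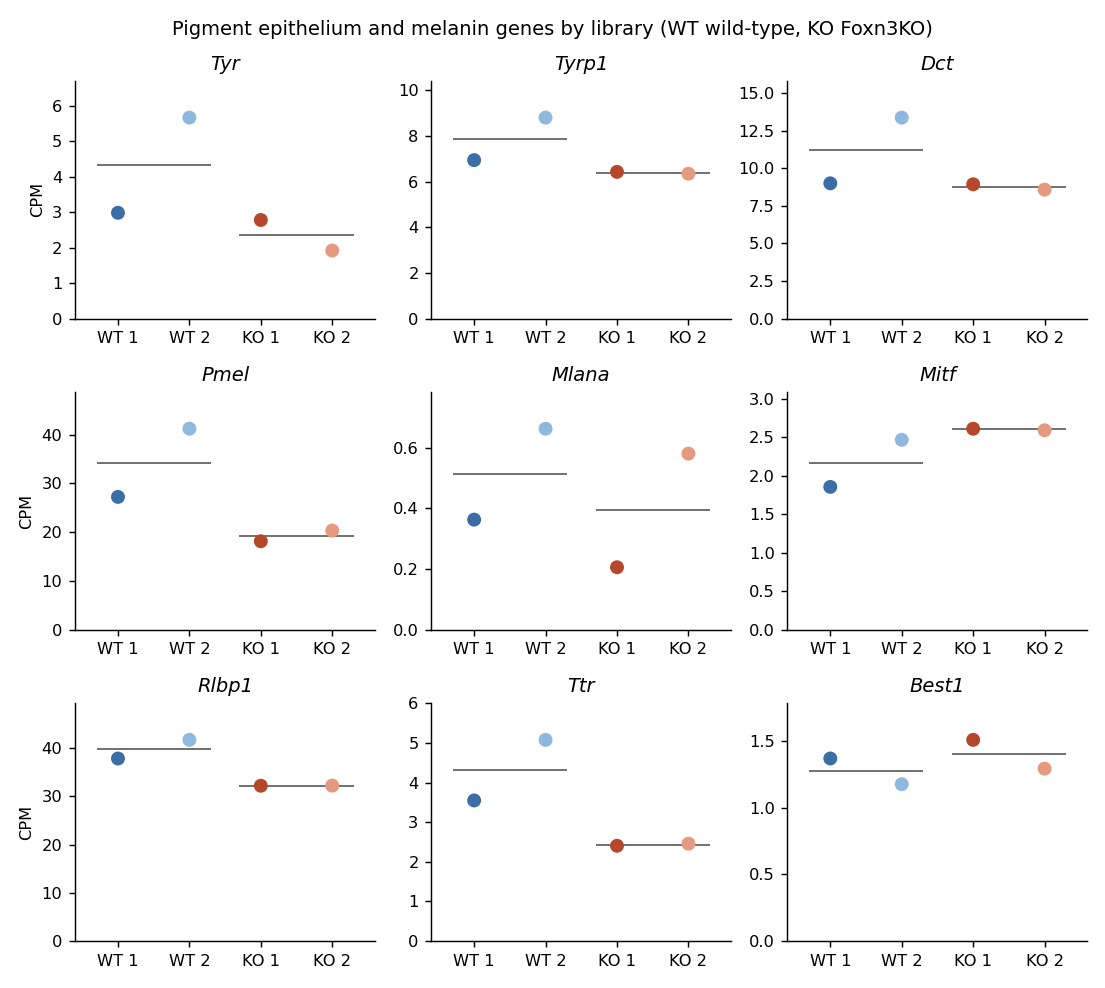
TMM-scaled CPM of the 9 tested genes in each library (y axes start at 0 and differ between panels); points are libraries and grey lines are group means of 2. Wild-type replicate 2 is the highest point in 7 of the 9 panels, all but Mitf and Best1.

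The levels of these genes were compared per length, on the scale of the authors' FPKM values. Rlbp1 and Pmel stood at the top, with means over the 4 libraries of 12.2 and 11.6 FPKM, and their order changed between libraries. Pmel was above Rlbp1 in wild-type replicate 2 (17.9 and 14.1 FPKM) and below it in the other 3, as in Foxn3KO replicate 1 (7.89 and 10.9 FPKM). Ttr (2.83 FPKM), Tyrp1 (2.51 FPKM) and Dct (1.68 FPKM) followed. Ttr was above Tyrp1 in both wild-type libraries and below it in both Foxn3KO libraries. Best1 (0.517 FPKM), Tyr (0.468 FPKM), Mlana (0.427 FPKM) and Mitf (0.383 FPKM) were the lowest, and neighbours in this order overlapped in their ranges over the libraries. For comparison, the transcription factor gene Otx2, which the neural retina also uses, had a mean of 108 FPKM.

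Among the melanin genes, Pmel changed most clearly. Pmel (ENSMUSG00000025359) encodes the protein that forms the fibrils of the young melanosome. It had 675 and 1119 counts in wild-type replicates 1 and 2 and 528 and 455 in Foxn3KO replicates 1 and 2, or 27.2, 41.2, 18.1 and 20.3 CPM. Both Foxn3KO libraries lay below both wild-type libraries. The mean level fell from 34.2 ± 9.88 to 19.2 ± 1.54 CPM (SD over 2 libraries in each group). On the log2 scale the difference was -0.84 (SE 0.13, edgeR adjusted p = 0.000137). Without wild-type replicate 2, where Pmel was highest, the log2 fold change was -0.51 (edgeR adjusted p = 6.9e-07), and without wild-type replicate 1 it was -1.11. In GENCODE M21, 6.06% of the exon bases of Pmel lie over exons of Cdk2 and Dgka on the opposite strand. The use of strand in counting is not given in the sources used here, so reads from that stretch cannot be assigned.

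Tyr encodes tyrosinase, the enzyme that starts melanin synthesis. Tyr (ENSMUSG00000004651) had 74 and 154 counts in the wild-type libraries and 81 and 43 in the Foxn3KO libraries, or 2.98, 5.67, 2.78 and 1.92 CPM. Wild-type replicate 1 and Foxn3KO replicate 1 were close, and wild-type replicate 2 was far above the other 3. Tyr differed by -0.87 on the log2 scale (SE 0.27, edgeR adjusted p = 0.0282). In edgeR it did not pass without wild-type replicate 2 (-0.31, adjusted p = 0.453) or without Foxn3KO replicate 2 (-0.64, adjusted p = 0.0731). It did not pass by DESeq2 (adjusted p = 0.0730) or limma-voom either.

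The other melanin enzymes, Tyrp1 and Dct, did not pass. Tyrp1, the tyrosinase-related enzyme that stabilises tyrosinase, had 6.94 and 8.80 CPM in the wild-type libraries and 6.42 and 6.34 CPM in the Foxn3KO libraries. Its log2 fold change was -0.30 (SE 0.15, edgeR adjusted p = 0.152). Dct, which encodes dopachrome tautomerase, had 8.99 and 13.4 CPM against 8.93 and 8.57 CPM, with a log2 difference of -0.36 (SE 0.15, edgeR adjusted p = 0.105). For both genes the Foxn3KO libraries lay close to wild-type replicate 1, and wild-type replicate 2 was higher. Without wild-type replicate 1 both passed, at -0.46 for Tyrp1 (edgeR adjusted p = 0.0220) and -0.61 for Dct (edgeR adjusted p = 6.57e-05). Without wild-type replicate 2 the Dct value was -0.04 and the Tyrp1 value -0.12.

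Mlana, a melanosome membrane protein gene that works with Pmel, was near the limit of detection. It had 9 and 18 counts in the wild-type libraries and 6 and 13 in the Foxn3KO libraries, and the groups overlapped. The log2 fold change of -0.48 had an SE of 0.57 (edgeR adjusted p = 0.606), so a difference of the size seen in Pmel was not detectable at this depth.

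Mitf, the factor gene, did not pass, and its values leaned the other way. Mitf (ENSMUSG00000035158) had 46 and 67 counts in the wild-type libraries and 76 and 58 in the Foxn3KO libraries, or 1.85, 2.47, 2.61 and 2.59 CPM. Both Foxn3KO libraries lay above both wild-type libraries, by little in the case of wild-type replicate 2. The log2 fold change was 0.26 (SE 0.23, edgeR adjusted p = 0.476) and ranged from 0.08 to 0.49 when a library was left out, without passing the threshold.

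Rlbp1 encodes the retinal-binding protein CRALBP, which carries retinal in the pigment epithelium and is also made by Müller glia. Rlbp1 (ENSMUSG00000039194) had 939 and 1134 counts in the wild-type libraries and 938 and 722 in the Foxn3KO libraries, or 37.9, 41.7, 32.2 and 32.2 CPM. The wild-type libraries differed little, and both Foxn3KO libraries lay below them. The mean fell from 39.8 ± 2.74 to 32.2 ± 0.0187 CPM (SD over 2 libraries in each group). On the log2 scale the difference was -0.31 (SE 0.068, edgeR adjusted p = 0.00349). It passed with any library left out, at -0.23 to -0.37.

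Ttr, the transthyretin gene, had 88 and 138 counts in the wild-type libraries and 70 and 55 in the Foxn3KO libraries, or 3.55, 5.08, 2.40 and 2.46 CPM. Both Foxn3KO libraries lay below both wild-type libraries. The log2 fold change was -0.83 (SE 0.21, edgeR adjusted p = 0.00928). Without wild-type replicate 2 it was -0.55 and did not pass (edgeR adjusted p = 0.112). Best1, which encodes the chloride channel bestrophin of the pigment epithelium, had 34 and 32 counts against 44 and 29, or 1.37, 1.18, 1.51 and 1.29 CPM. Its groups overlapped, and the log2 fold change was 0.15 (SE 0.30, edgeR adjusted p = 0.766).

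**Figure D2:**
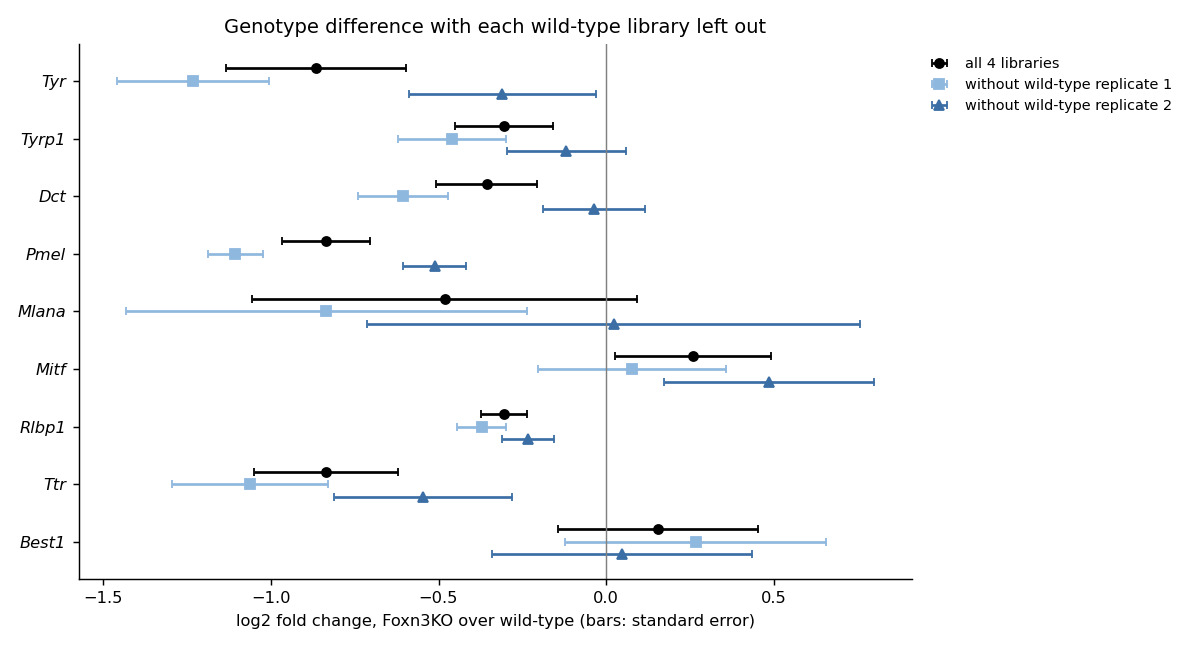
Log2 fold change of Foxn3KO over wild-type for each gene with all 4 libraries (black circles), without wild-type replicate 1 (light squares) and without wild-type replicate 2 (dark triangles); bars are standard errors. The melanin genes and Ttr lie further from 0 without wild-type replicate 1 and nearer to 0 without wild-type replicate 2; Pmel stays at -0.51 and Rlbp1 at -0.23.

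The replicates of each group were set against each other. The CPM of wild-type replicate 2 was 1.90 times that of wild-type replicate 1 for Tyr, with an exact 95% interval of 1.43 to 2.54 that covers counting error only. The ratio was 1.51 for Pmel (interval 1.37 to 1.67), 1.49 for Dct (1.25 to 1.76), 1.43 for Ttr (1.09 to 1.89) and 1.27 for Tyrp1 (1.04 to 1.55). It was 1.10 for Rlbp1 (1.01 to 1.20). The intervals of Mlana, Mitf and Best1 included 1. Among 9316 genes with a mean of 1 to 50 CPM, the middle 90% of this ratio ran from 0.746 to 1.33. Between the Foxn3KO libraries none of the 9 intervals excluded 1. Pmel had a ratio of 1.12 (0.986 to 1.27) there, and Tyr one of 0.690 (0.465 to 1.01).

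**Figure D3:**
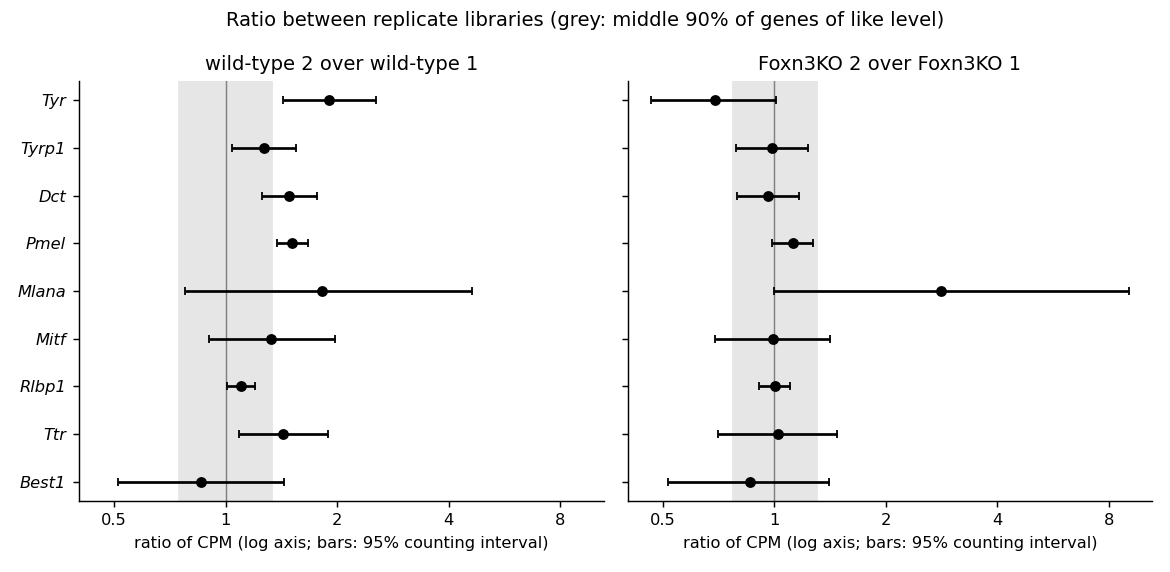
Ratio of CPM between the replicate libraries of each group (log axis), wild-type on the left and Foxn3KO on the right, with exact 95% counting intervals; the grey band is the middle 90% of 9316 genes with a mean of 1 to 50 CPM. Tyr, Dct, Pmel and Ttr lie above the band on the left panel and Tyr below it on the right panel; Mlana, under 1 CPM, is outside the levels the band covers.

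Each Foxn3KO library was then set against each wild-type library. Against wild-type replicate 1, the ratio for Pmel was 0.666 (0.593 to 0.748) in Foxn3KO replicate 1 and 0.746 (0.661 to 0.842) in Foxn3KO replicate 2. Ttr gave 0.677 (0.488 to 0.938) and 0.692 (0.485 to 0.980), and Rlbp1 0.851 (0.776 to 0.932) and 0.851 (0.772 to 0.939). These 3 genes had intervals below 1 in all pairs of libraries. Dct gave 0.993 (0.827 to 1.19) and 0.953 (0.782 to 1.16) against the same wild-type library, and Tyrp1 0.926 and 0.914, also with intervals that included 1. Tyr gave 0.932 (0.672 to 1.30) and 0.643 (0.431 to 0.949), so that only Foxn3KO replicate 2 had an interval below 1. Against wild-type replicate 2, Dct gave 0.668 and 0.642 and Tyr 0.491 and 0.339. For 6 of the 9 genes both Foxn3KO libraries lay below both wild-type libraries, an order found in 30.5% of all tested genes. Wild-type replicate 2 was the highest library for 77.8% of the 9 genes and for 23.9% of all tested genes.

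The make-up of the melanin genes was compared as shares of the summed FPKM of Tyr, Tyrp1, Dct, Pmel and Mlana. The summed CPM of the 5 genes was 46.5 and 69.7 in the wild-type libraries and 36.5 and 37.7 in the Foxn3KO libraries. Pmel made up 71.5% and 72.5% of the summed FPKM in the wild-type libraries and 64.4% and 66.3% in the Foxn3KO libraries. Tyrp1 made up 14.8% and 12.6% against 18.5% and 16.8%, and Dct 9.18% and 9.15% against 12.3% and 10.9%. The wild-type libraries differed in the total level of these genes and had like shares of Pmel and Dct, and both Foxn3KO libraries had a lower share of Pmel. Divided by the same sum, Ttr stayed within 0.155 to 0.180 in all libraries. Mitf stood at 0.0180 and 0.0161 in the wild-type libraries and at 0.0343 and 0.0312 in the Foxn3KO libraries. These ratios are descriptions of 4 libraries, with no test.

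**Figure D4:**
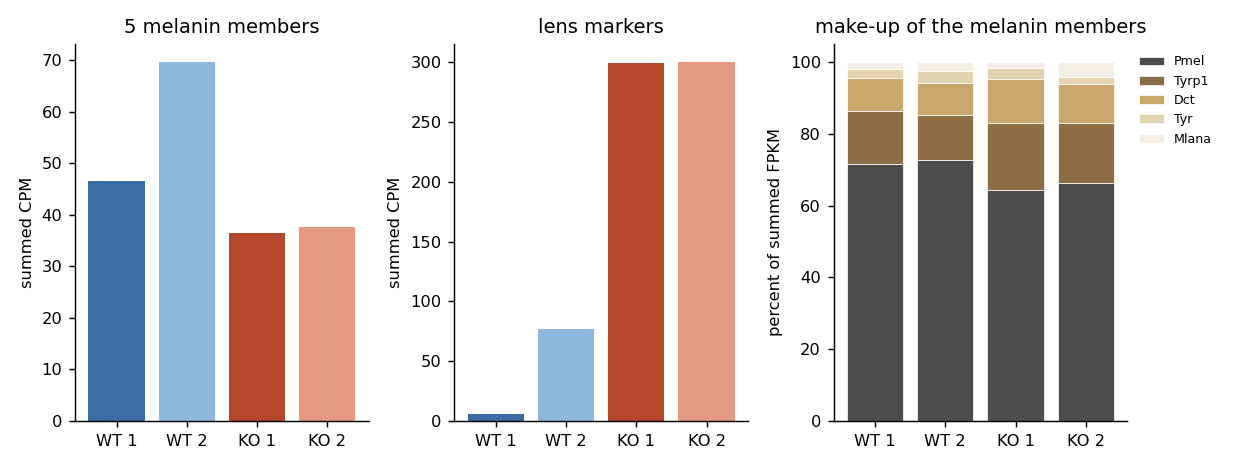
Summed CPM of the 5 melanin genes (left) and of the lens markers (middle) in each library, and the share of each melanin gene in their summed FPKM (right). The melanin sum is highest in wild-type replicate 2 at 69.7 CPM, the lens sum is 299.7 and 300.5 CPM in the Foxn3KO libraries, and the Pmel share is lower there.

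Other genes of the same cell type were taken from 4 lists of 65 tested genes, of which 21 passed by edgeR with adjustment over all tested genes, 12 higher and 9 lower in Foxn3KO. That is 32.3% of them, against 21.9% called among all tested genes (12.3% higher and 9.66% lower). Those shares belong to the fit of all 4 libraries and are to be set beside its counts for each list below. Fits with a library left out have other shares over all genes, so their counts are not to be set beside these. The median log2 fold change was -0.07.

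Of 31 tested genes for melanosome formation, pigment transport and melanin synthesis, 5 were higher and 4 lower, with a median log2 fold change of -0.09. The counts were 3 and 6 without wild-type replicate 1, and 6 and 5 without wild-type replicate 2. Slc7a11, the cystine transporter gene, rose from 7.18 and 6.26 CPM to 17.9 and 17.0 CPM, a log2 fold change of 1.38 (edgeR adjusted p = 3.88e-08). Myo7a, a motor that moves melanosomes in the pigment epithelium, rose by 0.45 in log2 units (edgeR adjusted p = 2.12e-05). Atp7a, the copper transporter that supplies tyrosinase, fell by 0.45 (edgeR adjusted p = 0.00172). Among the most abundant members, Cd63 rose by 0.21 (edgeR adjusted p = 0.00598) but did not pass without either Foxn3KO library (0.21 in both fits), while Ap3d1 (0.13, edgeR adjusted p = 0.0518) and Bloc1s6 (-0.02) did not pass. Ap3d1 lay at the threshold: it passed without wild-type replicate 2 (0.17), under RLE scaling, with at least 10 counts per library, in the earlier edgeR fit, with the replicate block and by limma-voom. Further genes of this list are given apart, chosen after their values were seen. The melanosome exchanger gene Slc24a5 fell by 0.90 in log2 units (edgeR adjusted p = 0.0223), from 2.18 and 2.50 CPM to 1.37 and 1.12 CPM. It did not pass without wild-type replicate 2 (-0.78), without Foxn3KO replicate 2 (-0.77) or by DESeq2 (adjusted p = 0.124). Gpnmb, a relative of Pmel, had 1.81 and 3.64 CPM against 1.89 and 1.21 CPM (log2 fold change -0.80, edgeR adjusted p = 0.0814), with wild-type replicate 2 again the highest. It passed without wild-type replicate 1 (-1.19, edgeR adjusted p = 0.000212) and without Foxn3KO replicate 1 (-1.19), and its value without wild-type replicate 2 was -0.19. Tspan10 had 1.01 and 1.40 CPM against 0.481 and 0.759 CPM and did not pass (edgeR adjusted p = 0.0770), but passed without wild-type replicate 1 (-1.21) and with at least 10 counts per library. Other members did not share that direction: Rab38, a GTPase that delivers Tyr and Tyrp1 to melanosomes, rose by 1.43 (edgeR adjusted p = 0.0275), and Trpm1 rose by 0.49 (edgeR adjusted p = 0.0466). Oca2, an anion channel gene of the melanosome, had 0.887, 1.44, 2.23 and 0.938 CPM, with overlapping groups. Rab38 did not pass without wild-type replicate 1 (1.16), Foxn3KO replicate 1 (1.54) or Foxn3KO replicate 2 (1.34). Trpm1 did not pass without wild-type replicate 1 (0.17) or Foxn3KO replicate 2 (0.44), gave 0.91 without wild-type replicate 2, and did not pass under total count scaling, in the earlier edgeR fit or by DESeq2 (adjusted p = 0.436).

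Of 11 tested transcription factor genes of pigment epithelium fate and of the Mitf family, 4 were higher and none was lower, with a median of -0.02. Without wild-type replicate 1 the counts were 3 and 2. Otx1, expressed in the pigment epithelium and at the ciliary margin, rose from 1.29 and 1.10 CPM to 2.71 and 2.95 CPM (log2 fold change 1.24, edgeR adjusted p = 0.00180). Nr2f2 rose by 0.46 (edgeR adjusted p = 5.65e-06) and Sox9 by 0.35 (edgeR adjusted p = 5.17e-05). Their wild-type means were 55.3 CPM for Nr2f2 and 78.3 CPM for Sox9, against 2.16 CPM for Mitf. The cell types that gave the Nr2f2 and Sox9 reads were not tested. Among the most abundant members, Otx2 (-0.02) and Crx (0.06) did not pass; both are also expressed in the neural retina.

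Of 8 tested genes of retinoid handling, 3 were lower and 1 was higher, with a median of -0.17. The genes that fell included Rgr and Rrh, which encode opsins of the pigment epithelium and its neighbours that bind retinal. Rrh fell from 66.2 and 65.8 CPM to 40.9 and 39.7 CPM, with a log2 difference of -0.71 (SE 0.057, edgeR adjusted p = 3.25e-08). Rgr fell from 4.44 and 4.86 CPM to 1.89 and 2.95 CPM, with a log2 difference of -0.97 (SE 0.22, edgeR adjusted p = 0.00321). Rdh10, a retinol dehydrogenase gene, fell by 0.40 (edgeR adjusted p = 4.34e-05). Unlike Tyr and Dct, these genes were at like levels in both wild-type libraries. Without wild-type replicate 2 they gave -0.71 for Rrh, -0.91 for Rgr and -0.38 for Rdh10, and all 3 passed. Without Foxn3KO replicate 1 the Rgr value was -0.66 and did not pass (edgeR adjusted p = 0.0667). Rdh11 (-0.09), among the most abundant members, did not pass. The gene that was higher, named after its values were seen, was the retinol-binding protein receptor gene Stra6 (0.66, edgeR adjusted p = 0.00596), which did not pass without Foxn3KO replicate 1 (0.38).

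Of 15 tested genes for transport, adhesion and secretion in the pigment epithelium, 2 were higher and 2 lower, with a median of -0.13. The counts were 2 and 4 without wild-type replicate 1, and 3 and 1 without wild-type replicate 2. The cadherin genes went opposite ways. Cdh3, the main cadherin of the mouse pigment epithelium, fell from 4.80 and 6.11 CPM to 3.09 and 3.04 CPM (log2 fold change -0.83, edgeR adjusted p = 0.00304). Cdh1, the general epithelial cadherin, rose from 1.53 and 2.25 CPM to 7.90 and 10.1 CPM (log2 fold change 2.23, edgeR adjusted p = 1.40e-07). The Cdh1 levels had the same library order as the summed lens markers, as did Gja1 and Msx1, ciliary margin markers given below. Lens sums were nearly equal in the Foxn3KO libraries, at 299.7 and 300.5 CPM. Between wild-type replicates 1 and 2 the lens sum went from 5.85 to 77.0 CPM and Cdh1 from 1.53 to 2.25 CPM. The tissue that gave the Cdh1 reads was not tested. Ezr, a linker of microvilli to actin, rose by 0.31 (edgeR adjusted p = 0.00305). Itgb5 (0.09) and Enpp2 (0.19) did not pass, although Enpp2 passed without wild-type replicate 2 (0.32) and with the replicate block. Named after their values were seen, the keratin gene Krt18 fell by 0.51 (edgeR adjusted p = 0.0179), but not past the threshold without wild-type replicate 2 (-0.40) or Foxn3KO replicate 1 (-0.42), nor by DESeq2 (adjusted p = 0.0989). The lactate transporter gene Slc16a8 had a value of -0.93 (edgeR adjusted p = 0.0594). Slc16a8 passed without wild-type replicate 1 (-1.19) and with at least 10 counts per library, and its value without wild-type replicate 2 was -0.58.

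**Figure D5:**
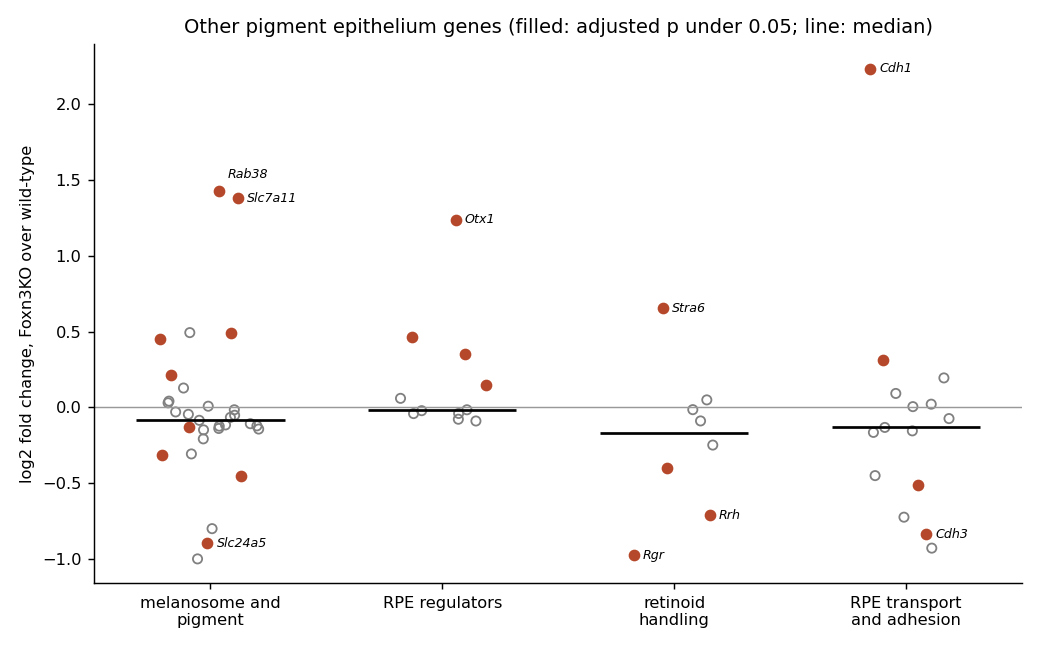
Log2 fold change of Foxn3KO over wild-type for each tested gene of the 4 lists; filled points passed an adjusted p under 0.05, open points did not, and black lines are medians. Slc24a5, Rgr, Rrh and Cdh3 lie among the low points, and Slc7a11, Rab38, Otx1, Stra6 and Cdh1 among the high ones.

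Melanocytes also express the melanin genes, so their markers were read beside them. Of 6 tested markers of melanocytes and neural crest, 2 were lower and none higher (3 and 0 without wild-type replicate 1), and their summed CPM was 104 and 110 in the wild-type libraries and 80.4 and 78.7 in the Foxn3KO libraries. Ednrb fell by 0.92 in log2 units (edgeR adjusted p = 9.95e-09) and Kit by 0.25 (edgeR adjusted p = 0.00976). Retinal cells express both, and Kit did not pass without Foxn3KO replicate 2 (-0.21). The defining marker Sox10, named after its values were seen, had 0.686, 1.40, 0.652 and 0.402 CPM, highest in wild-type replicate 2. Sox10 did not pass (-0.96, edgeR adjusted p = 0.140) except without wild-type replicate 1 (-1.35). None of the 6 was at 0 in any library, and Foxd3 and Pax3 were not analysed here. The part of melanocytes in the pigment values was not tested.

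Ttr is also abundant in choroid plexus, and Rlbp1 in Müller glia and their precursors. Of 9 tested choroid plexus markers 2 were higher and 1 lower, with counts of 4 and 1 without wild-type replicate 2, and 2 and 3 without wild-type replicate 1. Otx2, which the neural retina also uses, made up most of their summed CPM. Without Otx2 and Enpp2 the markers read, 8 in number, summed to 14.9 and 18.5 CPM in the wild-type libraries and 18.8 and 18.5 CPM in the Foxn3KO libraries. Folr1 rose by 1.94 (edgeR adjusted p = 4.08e-06) and Aqp1 by 1.22 (edgeR adjusted p = 0.000836), and Clic6 fell by 1.53 (edgeR adjusted p = 0.00103). Clic6 had 2.66 and 4.93 CPM in the wild-type libraries and 1.17 and 1.52 CPM in the Foxn3KO libraries, and its value was -1.01 without wild-type replicate 2. The other abundant members of this list were Otx2 and Enpp2, given above. Of 10 tested Müller glia markers 2 were higher and 3 lower, with 4 higher and 3 lower without wild-type replicate 2, and their summed CPM ranged from 2593 to 2722. Crym (0.67, edgeR adjusted p = 1.57e-09) and Vim (0.37, edgeR adjusted p = 2.01e-06) rose. Slc1a3, the glutamate transporter gene, fell by 0.40 (edgeR adjusted p = 1.78e-06), and the most abundant members, Dkk3 (-0.002) and Glul (0.05), did not pass, although Glul passed without wild-type replicate 2 (0.07). The part of these cell types in the Ttr and Rlbp1 values was not tested.

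Markers of tissue beside the pigment epithelium were read in the same way. Of 8 tested ciliary margin and iris markers 2 were higher and none lower: Gja1 rose by 1.54 (edgeR adjusted p = 3.79e-09) and Msx1 by 1.63 (edgeR adjusted p = 0.00791), while Zic2 (-0.10), Zic1 (0.14) and Cdo1 (0.18) did not pass. Without wild-type replicate 1 the counts were 4 and 1, as Zic1 (0.17, edgeR adjusted p = 0.0179) and Zic2 (-0.18, edgeR adjusted p = 0.0055) passed there. Of 10 tested vessel and mesenchyme markers 2 were higher and none lower, namely Pecam1 (1.07, edgeR adjusted p = 0.0150) and Tek (1.75, edgeR adjusted p = 0.0166), at 0.202 to 2.23 CPM. Pecam1 did not pass without Foxn3KO replicate 2 (0.92) or by DESeq2, and Tek did not pass without wild-type replicate 1 (1.52) or Foxn3KO replicate 1 (1.74). Kdr (-0.06), Pdgfrb (0.03) and Col1a1 (0.50) did not pass. The counts were 4 and 0 without wild-type replicate 2, with a median of 1.07, and 1 and 1 without wild-type replicate 1, with a median of 0.08. Col1a1, lowest in wild-type replicate 1 at 1.94 CPM, passed without wild-type replicate 2 (1.07, edgeR adjusted p = 0.000835) and without Foxn3KO replicate 1 (0.69), and its value was 0.09 without wild-type replicate 1. Kdr passed without wild-type replicate 1 (-0.09). Of 11 tested lens markers 10 were higher (9 without wild-type replicate 1, 11 without wild-type replicate 2), among them Cryab (4.65, edgeR adjusted p = 8.38e-13), Mip (3.42), Bfsp1 (1.45), Cryaa (3.24) and Crybb3 (3.11). By DESeq2, Cryaa (adjusted p = 0.332) and Crybb3 (adjusted p = 0.243) did not pass. Without wild-type replicate 2 the values were 8.72 for Cryaa, 7.01 for Crybb3 and 5.60 for Mip. Of 14 neural retina markers 3 were higher and 1 lower (3 and 3 without wild-type replicate 1, and 5 higher and 1 lower without the other wild-type library): Six3 (0.18, edgeR adjusted p = 0.0223) and Sox2 (0.17, edgeR adjusted p = 0.0103) rose and Isl1 fell by 0.23 (edgeR adjusted p = 0.00245), while Atoh7 (0.03) did not pass. Six3 and Sox2 did not pass without either Foxn3KO library (0.16 to 0.20 for Six3, 0.15 to 0.19 for Sox2), Six3 gave 0.08 when wild-type replicate 1 was left out and 0.28 when wild-type replicate 2 was, and Isl1 did not pass without Foxn3KO replicate 1 (-0.21).

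Genes with a pattern like that of the melanin genes were sought among 14917 other tested genes whose mean over the libraries reached 1 CPM. Likeness was the Euclidean distance over the 4 libraries between centred log2 CPM values and the mean of Tyr, Tyrp1, Dct, Pmel and Mlana. That mean stood at -0.05 and 0.54 in the wild-type libraries and at -0.29 and -0.20 in the Foxn3KO libraries. The nearest gene was Crb1, an apical polarity gene of the retina, at a distance of 0.0525. Crb1 had 59.2 and 89.8 CPM in the wild-type libraries and 51.4 and 52.2 CPM in the Foxn3KO libraries, so wild-type replicate 2 was again the highest. Gm22806, Gm56549, Adss1 and Gm56829 followed, at distances of 0.0552 to 0.0745 and with group means of 0.898 to 3.97 CPM. Gm22806 and Gm56549 had 21 to 47 counts per library and lay close to the 1 CPM limit of the search. Of the 9 genes themselves, Dct (0.203), Ttr (0.271), Tyrp1 (0.285) and Pmel (0.310) were nearest to the pattern. Rlbp1 (0.373), Tyr (0.535) and Mlana (0.583) lay further away, and Mitf (0.762) and Best1 (0.838) furthest. The 5 melanin genes enter the mean. Krt18, at a distance of 0.272 close to that of Ttr, ranked 67 among the 14917 other genes. With 4 libraries, many genes can share an order, and these distances carry no test.

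The authors' deposited table gives 3 of the 9 genes an adjusted p under 0.05: Rlbp1 (0.0184), Pmel (0.0399) and Ttr (0.0470). Tyr had an adjusted p of 0.0730 in the authors' deposited table. The adjusted p-values of these genes there were the same as those of DESeq2 run here on the counts, so they are not a separate result. The log2 fold changes of the authors' deposited table were nearer to 0 than those of edgeR, at -0.61 for Pmel, -0.60 for Ttr, -0.57 for Tyr and -0.28 for Rlbp1.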

How the data were processed

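Retinal RNA was sequenced in 4 libraries with a directional kit and adaptors carrying molecular identifiers, per the labels' protocols. The authors deposited raw counts per gene and library, FPKM values, a mean signal per gene, and log2 fold changes with p-values, per the file headers; DESeq2 and the build mm39 are named per the submitters' processing notes. The aligner, counting tool, annotation, use of strand and removal of duplicates are not given in the sources used here. Of the deposited columns, counts were tested, FPKM served to compare levels between genes, and the authors' log2 and p-value columns are quoted as theirs; the signal column was not used.

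A repeated identifier was dropped, which left 18471 genes, each with at least 16 counts in all. filterByExpr left 17300. Counts were scaled with TMM and tested in edgeR 4.0.16 (R 4.3.3) with the quasi-likelihood F test, two-sided, on genotype alone. P-values were adjusted by Benjamini-Hochberg over the whole table tested, with a threshold of 0.05. Each standard error was derived from a log2 fold change and its F value. The script was tested on simulated data. The labels name single retinas of individual embryos but not which embryo gave which library, so p-values measure the spread between these libraries only. Ratios of libraries have exact conditional binomial 95% intervals (scipy 1.17.1), which cover counting error only, since reads may not be independent molecules. Likeness used log2(CPM + 0.25). Figures were drawn with matplotlib 3.10.9.

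The genes and the lists were chosen with earlier results of these data known. Named were all 9 genes, the 3 genes per list with the highest mean FPKM, up to 3 genes per list that passed with the smallest p, and the 5 nearest genes by likeness; others are marked where they occur, and a few genes under this rule are not reported here. Alternatives were RLE and total count scaling, no filter, at least 10 counts per library, limma-voom (limma 3.58.1), DESeq2 1.42.0, the earlier edgeR fit, a replicate block, and fits without each library in turn.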

Additional observations from a re-analysis of the deposited data

How the results depend on the processing

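With all 4 libraries, 4 of the 9 genes passed under every scaling, filter and edgeR fit run, and 3 under DESeq2 and limma-voom, which lost Tyr; none of the 9 changed direction. DESeq2 called 2437 of all genes against 3795; the cause was not tested. Leaving out each library gave 2 to 6 of the 9 called, 2 of them without wild-type replicate 2, 2323 to 5067 genes called over the whole table, and 15 to 24 genes called in the 4 pathway lists against 21. Mlana ranged from -1.31 to 0.16 on the log2 scale. Other named genes that changed sign with a library left out were Bloc1s6 -0.0364 to 0.00711, Pdgfrb -0.0564 to 0.12, Dkk3 -0.0124 to 0.0111, Atoh7 -0.0266 to 0.10, Oca2 -0.32 to 0.93, and none of them passed with all 4 libraries. Dkk3 was also 0.000126 under RLE scaling and 8.53e-05 with at least 10 counts in every library. Mlana could not be tested under the filter of at least 10 counts. The labels state no pairing of samples by replicate number. The correlation of replicate differences between the groups was -0.00825 over 17300 genes, but with a single difference per group it cannot exclude a pairing. The replicate block gave 4222 calls with 4 of the 9 genes and 23 pathway genes passing. Mlana had under 20 counts in each library, and its direction was not resolved at this depth.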
